A study of Mus musculus with 12 samples.

Results

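The genes described here are 8 genes that glucocorticoid hormones are known to induce in heart: Sgk1, Fkbp5, Tsc22d3, Zbtb16, Mt1, Mt2, Cdkn1a and Cebpd. They were picked by name from the 55401 genes of the count files, and each has counts in the data. Of the 6596 genes with enough counts to test, 7 belong to the set, and Fkbp5 had too few. The set was selected on knowledge of the pathway with results of these libraries in view: the higher level of Sgk1 in total RNA of knockout hearts was already known. The comparison of genotypes in total RNA, and the comparisons that share the knockout total RNA libraries, are therefore given as descriptions: their values and the counts past the threshold are printed, and nothing is read from those counts. Tests are given for the genotypes on captured ribosomes and for captured against total RNA in wild-type hearts. The latter test shares the wild-type total RNA libraries with the known comparison, so it is not independent of the choice of genes.

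Adult mouse hearts of wild-type animals (WT) and of Rpl3l-/- animals (KO), which lack a muscle-specific paralog of the ribosomal protein gene Rpl3, were compared in a pair of fractions with 3 biological replicates each. The IP libraries hold RNA of ribosomes captured through an HA tag with anti-HA antibodies, from hearts put into cycloheximide (a drug that stalls ribosomes on mRNA) at excision, and the Input libraries hold total RNA of heart homogenates. Poly(A) RNA of both was sequenced on a nanopore flow cell from direct cDNA, giving 1 count per gene and library in 4 groups (WT Input, KO Input, WT IP, KO IP). The labels name no other drug or hormone treatment, no age beyond adult, sex, time of day or stress state, and no promoter or cell type that drives the tag. They do not say how Rpl3l was deleted, or whether Input and IP libraries with the same number came from 1 heart. IP RNA was purified on columns and Input RNA with TRIzol, so that fraction and purification cannot be told apart. In such bulk samples, fewer cells of a type and less RNA per cell cannot be told apart either.

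Glucocorticoids bind a receptor, encoded by Nr3c1, that waits in the cytosol on Hsp90 and its cochaperones. With hormone bound, the receptor enters the nucleus and attaches to response elements, which are palindromes built around the letters AGAACA and TGTTCT, and the genes beside them are transcribed more. In the heart the receptor acts in cardiomyocytes and in other cells, and blood hormone levels follow the time of day and stress. Some targets answer other signals as well: Sgk1 is also a serum response gene, Mt1 and Mt2 answer zinc and other metals, Cdkn1a answers p53, and Cebpd answers cytokines.

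Libraries held 169359 to 710868 counts, and 3 counts stand for 4.22 to 17.7 counts scaled to library size (CPM), with the coarsest value in KO Input replicate 3. All levels here are CPM after TMM scaling, a correction of library size for composition. Rpl3l itself, the check of the labels, lay at 222, 308 and 279 CPM in WT Input, 68.5, 27.0 and 51.1 in KO Input, 269, 271 and 275 in WT IP, and 2.33, 2.62 and 8.31 in KO IP. Of 10 cardiomyocyte markers 9 had counts, and their sum ran from 58276 to 76464 CPM in all 12 libraries. Actc1, the cardiac actin, was listed at 0 in every library. The sum of 6 atrial markers ran from 6802 to 8833 CPM in WT Input, 8262 to 11902 in KO Input, 410 to 1123 in WT IP and 329 to 1027 in KO IP, and that of 6 adipocyte markers from 121 to 638 CPM in Input and from 12.0 to 40.5 CPM in IP. The sum of 5 erythroid markers ran from 16154 to 202621 CPM and was highest in WT IP replicate 2 and WT Input replicate 3 (165732 CPM). The sum of 8 endothelial markers ran from 2286 to 3574 CPM in Input and from 1589 to 2167 CPM in IP, and that of 8 fibroblast markers from 2657 to 3899 CPM in all libraries, with Tcf21 listed at 0 throughout. The sums of 6 smooth muscle and pericyte markers (629 to 968 CPM) and of 7 macrophage markers (446 to 816 CPM) overlapped between all groups. The part of these cell types in the results below was not tested.

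Sgk1 (ENSMUSG00000019970.15, chromosome 10, 21882184 to 21999903, plus strand, build GRCm38) encodes a kinase that lifts sodium channels and transporters to the cell surface, in part by holding back the ubiquitin ligase Nedd4l. It has several start sites. The 250 bases before 1 of them are printed here because they hold the only full glucocorticoid response palindrome found before any of the 6 annotated Sgk1 starts, shown in capitals together with a lone TGTTCT nearer the 5′ end. The window is chr10:21993640-21993889 (GRCm38.p6, plus strand, RefSeq), it overlaps no annotated exon, and the start site is base 21993890.
Sgk1 upstream window: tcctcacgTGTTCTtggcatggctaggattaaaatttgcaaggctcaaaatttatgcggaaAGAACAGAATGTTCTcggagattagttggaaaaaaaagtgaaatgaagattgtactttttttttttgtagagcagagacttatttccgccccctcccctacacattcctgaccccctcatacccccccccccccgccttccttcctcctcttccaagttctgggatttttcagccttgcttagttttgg
The palindrome, AGAACA and TGTTCT with 3 bases of any kind between them, lies at positions -189 to -175, counted from the start site. Searched on both strands, it was found in 3 of 32817 such windows of mouse genes (0.00914%). A single AGAACA, or TGTTCT on the other strand, was far more common, with a match in 16.1% of windows.

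In total RNA the Sgk1 level was 37.4, 44.4 and 47.0 CPM in WT and 87.6, 204 and 193 CPM in KO, and all 3 KO hearts lay above all 3 WT hearts. On captured ribosomes it was 17.8, 29.1 and 33.5 CPM in WT and 28.0, 15.7 and 11.6 CPM in KO, and these groups overlapped. The order of the means was KO Input (162 ± 64.4, SD, n = 3), WT Input (42.9 ± 4.98), WT IP (26.8 ± 8.10) and KO IP (18.4 ± 8.52), where the last pair did not differ beyond its spread. These levels rest on 110, 47, 48 and 31 pooled counts, in the same order.

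**Figure D1:**
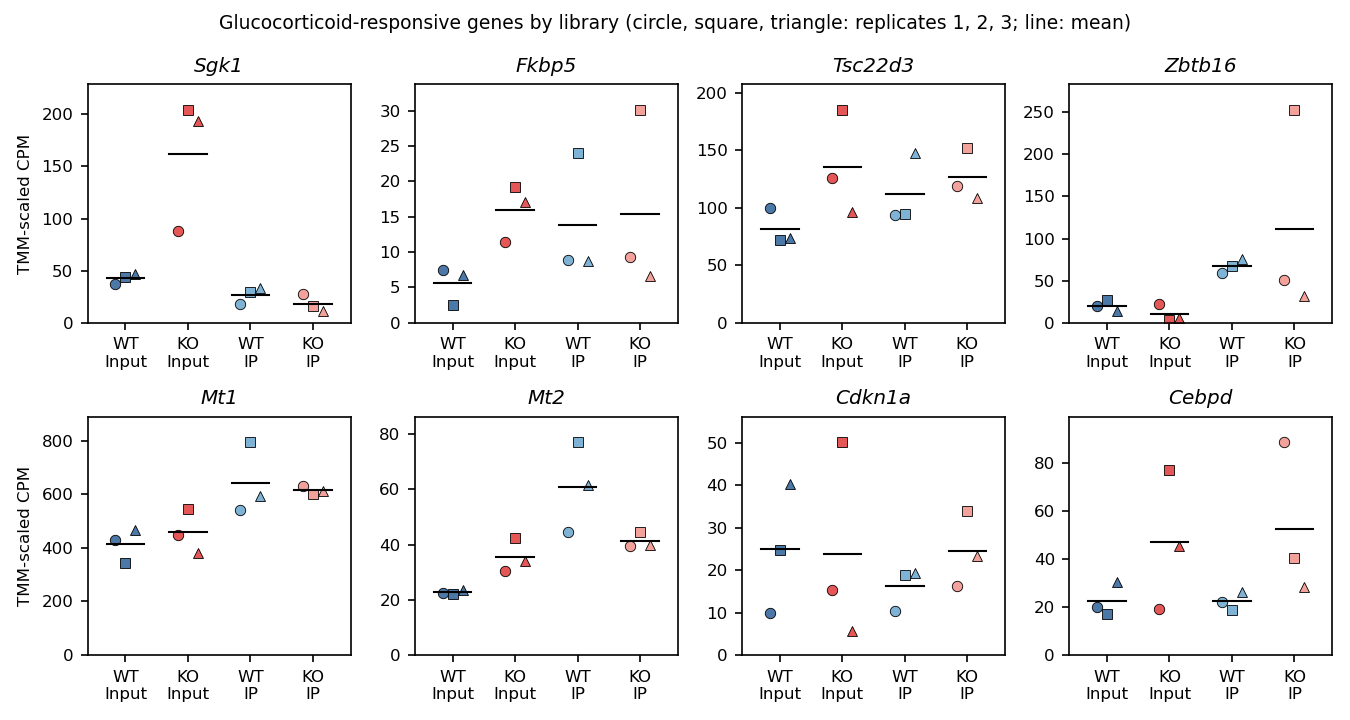
TMM-scaled CPM (vertical axis, linear, from 0, a separate scale for each gene) of the 8 glucocorticoid-responsive genes in the 4 groups, with 1 point per library (circle, square and triangle for replicates 1, 2 and 3) and a line at the mean of 3. Sgk1 stands apart in KO Input, Zbtb16 in 1 KO IP library at 252 CPM, and Mt1 and Mt2 are higher in WT IP than in WT Input.

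The KO to WT difference of Sgk1 in Input was a log2 fold change of 1.90 (SE 0.35, edgeR), a 3.77-fold difference of the means. In IP the difference was -0.58 (SE 0.41, edgeR quasi-likelihood test, adjusted p 0.980), and Sgk1 was not called. The IP to Input difference was -0.68 in WT (SE 0.38, edgeR adjusted p 0.254), where all 3 IP libraries lay below all 3 Input libraries, and -3.17 in KO (SE 0.37), an 8.76-fold lower mean on ribosomes. The difference between those IP to Input differences was -2.48 (SE 0.54). With KO Input replicate 1 left out it was -2.79, and with KO IP replicate 1 left out -2.82. Without WT Input replicate 1, KO Input replicate 2 or KO Input replicate 3 the Input difference of Sgk1 was 1.79, 1.64 and 1.77.

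Over the 12 libraries the genes whose log2 level was most like that of Sgk1 were Ccn1 (Pearson r 0.944), Ier2 (0.938) and Zfp36 (0.937). Ccn1 encodes a matrix protein induced by mechanical load, Ier2 a nuclear immediate early protein, and Zfp36 a protein that speeds the decay of mRNAs with AU-rich elements. The points share libraries and depth, and the values describe these libraries only. Immediate early genes are switched on within minutes by stretch or growth factors, and in Input their sum was higher in KO, as Sgk1 was. Their summed level over 24 genes was 710, 737 and 856 CPM in WT Input and 1238, 2045 and 2625 CPM in KO Input. In IP the sum was 506, 586 and 535 CPM in WT and 642, 696 and 676 CPM in KO. It was thus higher in every KO IP library, whereas Sgk1 had a lower mean in KO IP, in groups that overlapped. Of 16 such genes tested, 5 were past the threshold of 0.05 on the adjusted p higher in KO Input, where 0.182% of all genes were called (among them Nr4a1, log2 fold change 2.88, SE 0.44, and Egr1, 3.23, SE 0.53). This list was chosen with earlier results of these data known, so nothing is read from that count. In IP 0 of the 16 passed by edgeR, where 0.0910% of all genes were called, with 2 at an unadjusted p under 0.05. The 1 with the smallest p there was Klf2 (0.82, SE 0.27, edgeR adjusted p 0.797). Their part in the Sgk1 values was not tested.

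Genes for relatives of Sgk1 and for proteins that act with it or are controlled by it were not called between genotypes. Of 15 listed genes 11 were tested, and 0 passed by edgeR in KO against WT in IP (0 at an unadjusted p under 0.05), with a median log2 fold change of -0.00163 beside 0.000119 over all genes. The smallest p there was that of Nedd4, a ubiquitin ligase (0.28, SE 0.17, edgeR adjusted p 0.965). None passed in Input (median 0.10 beside -0.0064), where Mapkap1, a subunit of the complex that switches Sgk1 on, had the smallest p (-1.08, SE 0.50). In WT IP against WT Input 2 of 11 were past the threshold, each higher, a share near the 14.0% of all genes called. Among them was Wnk1, a kinase that governs chloride cotransport (0.92, SE 0.19, edgeR adjusted p 0.0014). Sgk2 was listed at 0 in every library.

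Fkbp5 (ENSMUSG00000024222.17, chromosome 17, 28399094 to 28517527, minus strand) encodes a cochaperone that lowers the hormone affinity of the receptor and so closes a feedback loop. Its counts were 3, 1 and 2 in WT Input, 3, 5 and 3 in KO Input, 6, 14 and 5 in WT IP, and 4, 23 and 4 in KO IP, too few for the count filter. In CPM these are 7.48, 2.47 and 6.72 in WT Input, 11.4, 19.3 and 17.0 in KO Input, 8.88, 24.0 and 8.80 in WT IP, and 9.33, 30.1 and 6.65 in KO IP. KO Input lay above WT Input in all libraries, and the IP groups overlapped. From pooled counts WT Input held 5.43 CPM (exact 95% interval 1.99 to 11.8) and KO Input 15.8 CPM (7.86 to 28.2), so that the intervals, which cover counting error only, overlap. In both IP groups replicate 2 was the highest library, and no fold change is given for this gene.

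Of 12 other members of its protein family, the FK506-binding peptidyl-prolyl isomerases, 8 were tested. None passed edgeR's test between genotypes in IP (0 at an unadjusted p under 0.05) or in Input, with Fkbp3 (0.25, SE 0.18, edgeR adjusted p 0.983) and Fkbp1a (-0.32, SE 0.23) at the smallest p. In WT IP against WT Input 3 of 8 passed, beside 14.0% of all genes. Fkbp4, a cochaperone that competes with Fkbp5 for Hsp90, rose (0.62, SE 0.16, edgeR adjusted p 0.0121). Fkbp3, a nuclear isomerase, fell (-0.75, SE 0.18, edgeR adjusted p 0.00573), and so did 1 other, Fkbp2 of the endoplasmic reticulum (-1.12, SE 0.33, edgeR adjusted p 0.0232).

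Tsc22d3 (ENSMUSG00000031431.13, chromosome X, 140539528 to 140600659, minus strand) encodes the leucine zipper protein GILZ, which carries anti-inflammatory effects of glucocorticoids by binding NF-kappaB and AP-1. Its level was 99.7, 71.5 and 73.9 CPM in WT Input and 126, 185 and 96.6 CPM in KO Input. On ribosomes it was 93.3, 94.2 and 148 CPM in WT and 119, 152 and 108 CPM in KO. All 4 groups overlapped with at least 1 other, and 2 of 3 KO Input libraries lay above every WT Input library. The means were 136, 126, 112 and 81.7 CPM in KO Input, KO IP, WT IP and WT Input, and the neighbours in that order overlapped. The KO to WT difference was 0.19 in IP (SE 0.23, edgeR adjusted p 0.985) and 0.75 in Input (SE 0.28), and the IP to Input difference in WT was 0.44 (SE 0.25, edgeR adjusted p 0.272). In KO the IP to Input difference was -0.12 (SE 0.25), which turned to 0.17 without KO Input replicate 2 and to 0.03 with library totals in place of TMM. The 3 tested relatives of the TSC22 family had no call between genotypes. Among them Tsc22d1 had the smallest p in IP (0.14, SE 0.17, edgeR adjusted p 0.985) and in WT IP against Input (0.51, SE 0.18, edgeR adjusted p 0.0575).

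Zbtb16 (ENSMUSG00000066687.5, chromosome 9, 48654297 to 48836222, minus strand) encodes PLZF, a zinc finger transcriptional repressor and a strong glucocorticoid target in many tissues. In total RNA it was low: 19.9, 27.1 and 13.4 CPM in WT, and 22.8, 3.85 and 5.68 CPM in KO, from 23 and 8 pooled counts. On ribosomes it was 59.2, 66.8 and 75.7 CPM in WT, and 51.3, 252 and 31.6 CPM in KO, from 22, 193 and 19 counts in KO. KO IP replicate 2 thus stood alone above the other 5 IP libraries, and the remaining KO IP libraries lay below all 3 WT IP libraries. Every IP library lay above every Input library in either genotype.

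The KO to WT difference of Zbtb16 in IP was 0.80 (SE 0.45, edgeR adjusted p 0.964), and without KO IP replicate 2 it was -0.72 (SE 0.36, edgeR adjusted p 0.882). The adjusted p ranged from 0.371 to 1 over the alternatives, with the difference above 0 in each but that one. The sign of the genotype difference on ribosomes is therefore that of 1 library. In Input the difference was -0.84 (SE 0.97). The IP to Input difference was 1.68 in WT (SE 0.61, edgeR adjusted p 0.0653), a 3.33-fold higher mean on ribosomes that missed the threshold in the fit of all 12 libraries. Zbtb16 passed the count filter through its IP libraries, where it is high. Over the alternatives run the adjusted p ranged from 5.96e-05 with no count filter (1.75) to 0.187 with the DESeq2 test (1.74). In KO the difference was 3.32 (SE 0.73), and 1.82 without KO IP replicate 2.

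In KO IP replicate 2 the Zbtb16 level was 3.27-fold that of the next highest IP library, with 2 CPM added to both. Among the 6596 genes tested it ranked 3 by that measure, and 9 genes in all reached 2-fold there, beside 4 to 20 in each of the other 5 IP libraries. That library was also the highest of the 6 IP libraries for Tsc22d3, Cdkn1a and the untested Fkbp5. It was thus highest for 3 of the 7 tested genes, for 4 of 28 other glucocorticoid-induced genes and for 16.4% of all genes tested. Zbtb16, for which this library was singled out, is 1 of those 3, so nothing is read from that count. The other 5 IP libraries were each highest for 0 to 2 of the 7. KO IP replicate 2 had the largest total, 710868 counts. The genes most like Zbtb16 over the 12 libraries were Ndrg4 (Pearson r 0.942), Ahnak (0.912) and Acadl (0.909). Ndrg4 is a cytosolic protein of heart and brain, Ahnak a very large scaffold protein, and Acadl an enzyme of fatty acid oxidation.

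Cebpd (ENSMUSG00000071637.5, chromosome 16, 15887286 to 15891031, plus strand) encodes a transcription factor of the acute phase and of fat cell differentiation. It was the 1 gene of the set whose KO and WT libraries did not overlap on ribosomes: 22.2, 18.8 and 26.4 CPM in WT IP, and 88.7, 40.6 and 28.3 CPM in KO IP. In Input it was 19.9, 17.3 and 30.2 CPM in WT and 19.0, 77.0 and 45.5 CPM in KO, and these overlapped. The Input values rest on 8, 7 and 9 counts in WT and 5, 20 and 8 counts in KO. The highest KO library differed between the fractions, replicate 1 in IP and replicate 2 in Input. The KO to WT difference in IP was 1.15 (SE 0.41, unadjusted p 0.0100, edgeR adjusted p 0.827), which did not pass. Without KO IP replicate 1 it was 0.62 (edgeR adjusted p 0.948, with a range of 0.306 to 1 over the alternatives). In Input it was 1.10 (SE 0.52). The sum of 8 fibroblast markers did not overlap between the genotypes in IP either, at 2792, 2657 and 3097 CPM in WT and 3899, 3226 and 3627 CPM in KO, with replicate 1 the highest KO library as for Cebpd. Of these markers 7 were tested, and 0 passed between genotypes in IP by edgeR (median 0.20). Their part in the Cebpd values was not tested. KO IP replicate 1 was the highest of the 6 IP libraries for 23.1% of all genes tested, beside 13.9% to 16.4% in each of the others. It also had the fewest counts of the IP libraries, 443525. The IP to Input differences of Cebpd were near 0 in both genotypes, at 0.04 in WT (SE 0.50, edgeR adjusted p 0.975) and 0.09 in KO (SE 0.44), where it was -0.43 without KO IP replicate 1. In WT the mean was 22.5 CPM in Input and 22.5 CPM in IP, and in KO it was 47.2 and 52.5 CPM.

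Genes most like Cebpd included Sgpl1 (Pearson r 0.845) and its own relative Cebpb (0.827). Of 5 other C/EBP genes 3 were tested, and none passed in any comparison. Cebpb, a partner of Cebpd in the acute phase, differed by 0.40 between KO and WT in IP (SE 0.27, edgeR adjusted p 0.969) and by 0.44 in Input (SE 0.35). Among 12 acute phase and cytokine genes only Stat3 and Il6st had enough counts to test, and neither passed between genotypes. Of the 2, Il6st, the shared signalling receptor of the interleukin-6 family, rose in WT IP against WT Input, where 14.0% of all genes were called (1.07, SE 0.22, edgeR adjusted p 0.00177). The Spidr gene overlaps Cebpd on the other strand and held 7 counts in all.

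Cdkn1a (ENSMUSG00000023067.14, chromosome 17, 29090976 to 29100727, plus strand) encodes p21, an inhibitor of cyclin-dependent kinases. Its libraries spread widely in total RNA: 9.97, 24.7 and 40.3 CPM in WT Input and 15.2, 50.1 and 5.68 CPM in KO Input, from 1 to 13 counts a library. On ribosomes it was 10.4, 18.8 and 19.4 CPM in WT and 16.3, 34.0 and 23.3 CPM in KO. All groups overlapped. The KO to WT difference was 0.66 in IP (SE 0.51, edgeR adjusted p 0.985) and 0.07 in Input (SE 0.60), which turned to -1.09 without KO Input replicate 2. The IP to Input difference was -0.58 in WT (SE 0.56, edgeR adjusted p 0.531) and 0.01 in KO (SE 0.57). Of 14 other p53 targets 6 were tested, with no call between genotypes by edgeR (1 at an unadjusted p under 0.05 in IP) and the smallest p in IP for Ccng1, cyclin G1 (-0.45, SE 0.17, edgeR adjusted p 0.884). Bax, a protein that permeabilises mitochondria, was the 1 of 6 called in WT IP against WT Input, beside 14.0% of all genes, and fell (-1.23, SE 0.40, edgeR adjusted p 0.0403). Of the 6 other inhibitors of cyclin-dependent kinases 3 were tested and none passed, with Cdkn1c (p57) at 0.98 in WT IP against WT Input (SE 0.39, edgeR adjusted p 0.0946).

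Mt1 and Mt2 encode metallothioneins, small cysteine-rich proteins that bind zinc and copper and scavenge radicals. They are neighbours on chromosome 8 of build GRCm38, Mt2 at 94172664 to 94173568 (ENSMUSG00000031762.7) and Mt1 at 94179082 to 94180327 (ENSMUSG00000031765.8), both on the plus strand. Their upstream sequences are shown because only these genes of the set were past the threshold in WT IP against WT Input. Zbtb16 and the untested Fkbp5 also lay higher in every WT IP library than in any WT Input library. The capitals mark matches on either strand to TGCACNC or TGCGCNC, a pair of forms of the core that the zinc-sensing factor Mtf1 binds. The windows are chr8:94172368-94172617 for Mt2, ending at the base before the RefSeq start site, and chr8:94178839-94179081 for Mt1, printed without the bases that another annotated transcript has in its first exon (GRCm38.p6, RefSeq, plus strand).
Mt2 upstream window: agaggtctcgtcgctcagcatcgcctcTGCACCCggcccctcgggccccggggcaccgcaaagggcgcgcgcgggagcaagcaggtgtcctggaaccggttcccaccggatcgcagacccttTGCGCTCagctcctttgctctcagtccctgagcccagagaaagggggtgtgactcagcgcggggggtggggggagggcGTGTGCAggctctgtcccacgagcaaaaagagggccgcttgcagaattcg
Mt1 upstream window: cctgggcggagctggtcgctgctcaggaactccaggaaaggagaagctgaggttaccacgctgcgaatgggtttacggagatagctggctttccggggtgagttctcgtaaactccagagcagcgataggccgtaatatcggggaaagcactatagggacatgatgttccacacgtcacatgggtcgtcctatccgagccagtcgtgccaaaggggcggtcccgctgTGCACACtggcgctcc
The Mt2 window holds 3 matches, which begin at positions -223, -128 and -50 from its start site, and the Mt1 window holds 1, at -23 from its own. Bases outside the windows were not searched, among them those from the Mt2 start site (94172618) to the gene start at 94172664. The bases from the Mt1 start site (94179089) onward were not searched either, so the matches counted are those of these windows only. Of all 32817 windows 21.4% held a match to either form, 10.4% to TGCACNC and 12.5% to TGCGCNC. No glucocorticoid response palindrome and no single AGAACA or TGTTCT was found in either window, searched over the full 250 bases.

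**Figure D2:**
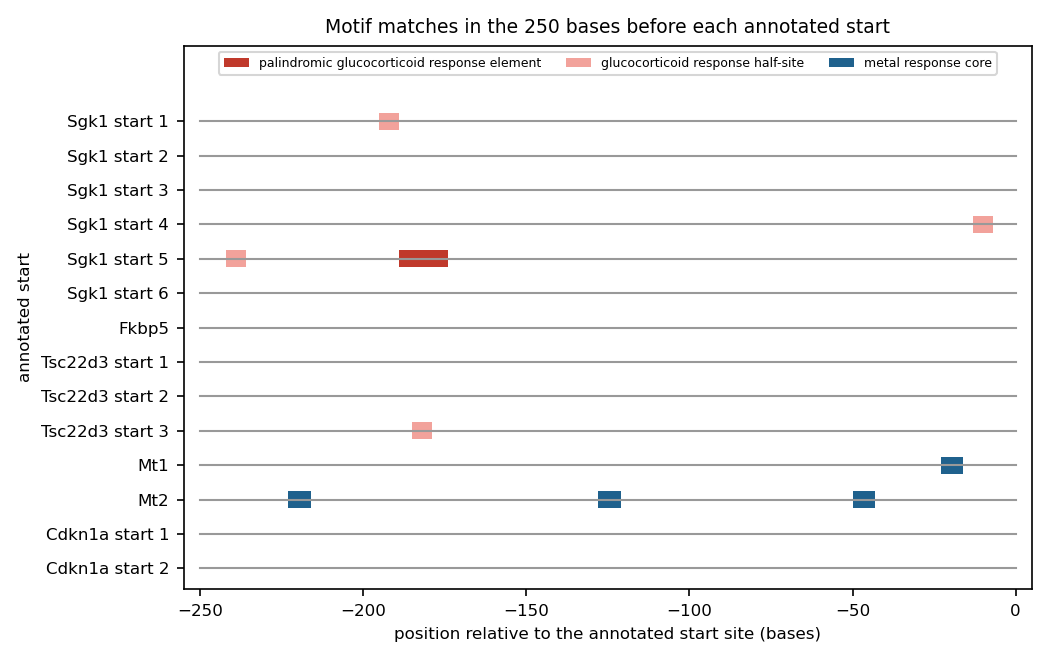
Matches to the glucocorticoid response palindrome (dark red), to its single AGAACA or TGTTCT (light red) and to the metal response core (blue) in the 250 bases before each of 14 annotated starts of 6 genes, against the distance from the start site in bases. The palindrome is seen at 1 Sgk1 start, and the metal response core at Mt2 (3 matches) and Mt1 (1 match). RefSeq windows for Zbtb16 and Cebpd are not shown.

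Mt1 had the most counts of the 8 genes, at 431, 345 and 467 CPM in WT Input, 449, 547 and 381 CPM in KO Input, 543, 795 and 593 CPM in WT IP, and 632, 600.4 and 612 CPM in KO IP. Every IP library lay above every Input library of its genotype, and the genotypes overlapped in both fractions. In WT the IP to Input difference was 0.64 (SE 0.17, edgeR adjusted p 0.0137), a 1.55-fold rise. It was no longer past the threshold without WT IP replicate 2 (0.46, edgeR adjusted p 0.120), the library rich in erythroid markers, or without WT Input replicate 2 (0.52, edgeR adjusted p 0.106), with an adjusted p from 0.00214 to 0.120 over all alternatives run. In KO the difference was 0.41 (SE 0.18). Between genotypes the difference was -0.07 in IP (SE 0.17, edgeR adjusted p 0.994), which turned to 0.06 with library totals in place of TMM and to 0.11 without WT IP replicate 2, and 0.16 in Input (SE 0.18).

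Mt2 lay at 22.4, 22.2 and 23.5 CPM in WT Input and 30.5, 42.4 and 34.1 CPM in KO Input, where all KO libraries were above all WT libraries. On ribosomes it lay at 44.4, 77.1 and 61.6 CPM in WT and 39.7, 44.5 and 39.9 CPM in KO, which overlapped only through KO replicate 2 at 44.5 and WT replicate 1 at 44.4 CPM. In WT the IP to Input difference was 1.41 (SE 0.32, edgeR adjusted p 0.00379), a 2.69-fold rise that stayed past the threshold with each WT library left out in turn (adjusted p up to 0.0306). In KO the difference was 0.22 (SE 0.34), and the difference between the genotypes' differences was -1.20 (SE 0.48). Between genotypes the difference was -0.54 in IP (SE 0.27, edgeR adjusted p 0.943) and 0.65 in Input (SE 0.40). The WT and KO Input values rest on 25 pooled counts each.

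The pair moved together over the 12 libraries (Pearson r 0.841), yet not in proportion. Counts of Mt1 were divided by those of Mt2, each per length of the first-numbered annotated transcript (549 and 511 bases). The ratios were 17.9, 14.5 and 18.5 in WT Input and 13.7, 12.0 and 10.4 in KO Input, from 6 to 11 Mt2 counts a library. They were 11.4, 9.60 and 8.96 in WT IP, and 14.8, 12.6 and 14.3 in KO IP. The ratio was thus highest in WT Input (17.0 ± 2.16, SD, n = 3) and lowest in WT IP (9.98 ± 1.26), with KO IP (13.9 ± 1.18) and KO Input (12.0 ± 1.67) between them. KO and WT did not overlap within either fraction, and the order was opposite in IP and Input. This ratio was looked at after the levels were seen and was not tested. Mt1 and Mt2 are alike in sequence, and the sources used here do not state how a read that matches both was assigned.

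Of 13 other genes of metal handling 5 were tested, and none passed edgeR's test between genotypes (0 at an unadjusted p under 0.05 in IP), with Mtf1 at 0.93 in IP (SE 0.47, edgeR adjusted p 0.946). In WT IP against WT Input 2 of 5 fell, beside 14.0% of all genes called, the ferritin chains Fth1 (-1.84, SE 0.22, edgeR adjusted p 1.12e-06) and Ftl1 (-1.88, SE 0.25, edgeR adjusted p 8.37e-06), whose mRNAs carry an iron response element, a control of their translation. The genes most like Mt1 were Slc25a11 (Pearson r 0.911), Ppp1r12b (0.911) and Hmgn5 (0.896), and those most like Mt2 were Mapk6 (0.906), 2310022B05Rik (0.897) and Oxr1 (0.867). Slc25a11 is the mitochondrial oxoglutarate carrier, and Mapk6 is an atypical MAP kinase. For Tsc22d3 the nearest were Noct, a phosphatase with a circadian rhythm (0.806), Osbp2 (0.80) and Bdp1 (0.795), and for Cdkn1a they were Phip (0.896), Rab35 (0.826) and Stoml2 (0.825).

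The members' differences are seen side by side in the plot of their fold changes. Between genotypes on ribosomes 0 of the 7 tested genes passed the threshold, where 0.0910% of all genes did, and it was 0 of 7 as well by DESeq2 and by limma-voom. At an unadjusted p under 0.05 in edgeR it was 1 of 7 (Cebpd), beside 343 of the 6596 genes. Libraries did not overlap for 1 of 7 (Cebpd), beside 10.8% of all genes. The median difference of the 7 was 0.19 log2, beside 0.000119 over all genes. In total RNA, where the Sgk1 difference had been seen when the genes were chosen, 1 of 7 was past the threshold (Sgk1) and 0.182% of all genes were, and nothing is read from that count. Libraries did not overlap there for Sgk1 and Mt2, beside 12.4% of all genes, and 6 of 7 differences were above 0 (median 0.65 beside -0.0064).

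**Figure D3:**
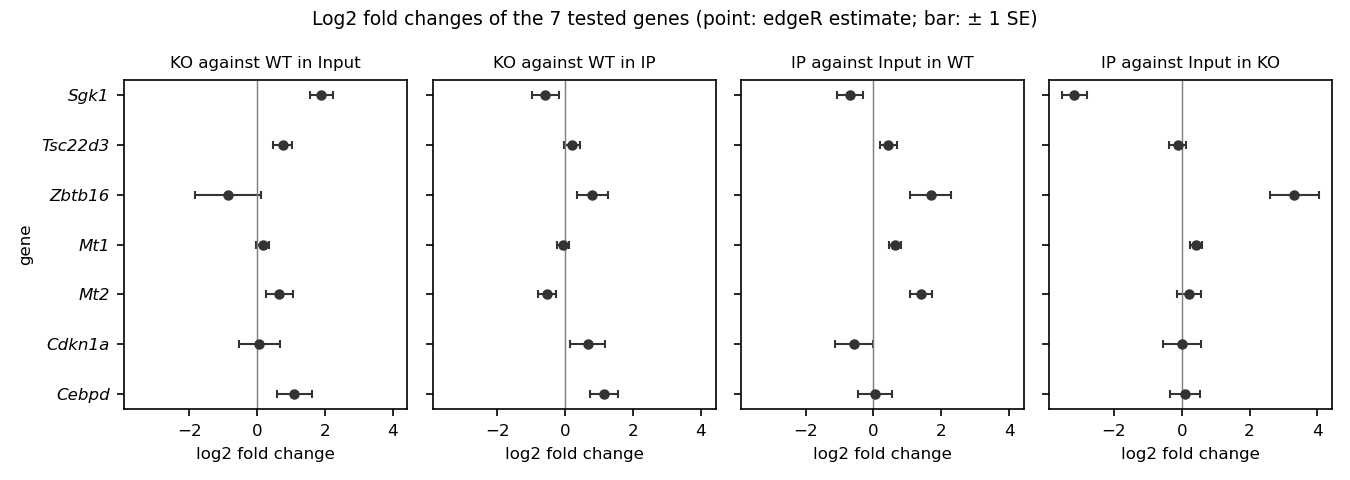
Log2 fold changes (horizontal axis) of the 7 tested genes in 4 comparisons, as edgeR estimates with bars of 1 SE on either side. Sgk1 lies at 1.90 in KO against WT Input and at -3.17 in IP against Input of KO, and Mt2 and Mt1 lie at 1.41 and 0.64 in IP against Input of WT.

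Between captured and total RNA in WT hearts 2 of the 7 passed the threshold higher (Mt1 and Mt2) and 0 lower. Over all genes 14.0% were called there in either direction. Libraries did not overlap for 4 of 7 (Mt1, Mt2 and Zbtb16 higher, Sgk1 lower), beside 34.6% of all genes. In KO hearts 1 of 7 was past the threshold higher (Zbtb16) and 1 lower (Sgk1), beside 16.4% of all genes, and libraries did not overlap for 3 of 7 (these and Mt1), beside 30.8%. For the difference between the genotypes' IP to Input differences 0 of 7 were past the threshold by edgeR, beside 0.0910% of all genes. The comparisons in Input, in KO and of the differences share the KO Input libraries, so nothing is read from these counts either. The WT comparison shares the WT Input libraries with the known one, so its calls are not independent of the choice of genes.

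Nr3c1, the glucocorticoid receptor gene, was well measured in every group: 82.3, 64.1 and 101 CPM in WT Input, 87.6, 108 and 131 CPM in KO Input, 147, 120 and 89.8 CPM in WT IP, and 88.7, 137 and 84.8 CPM in KO IP. Groups overlapped, and the KO to WT difference was -0.18 in IP (SE 0.23, edgeR adjusted p 0.985) and 0.39 in Input (SE 0.29). Nr3c2, the mineralocorticoid receptor gene, whose protein binds the same hormone, held 2 to 15 counts a library and 5.92 to 24.9 CPM. Hsd11b1, whose enzyme regenerates active hormone, held 13, 3, 7 and 0 pooled counts in WT Input, KO Input, WT IP and KO IP. Hsd11b2, whose enzyme inactivates the hormone, was listed at 0 in every library.

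Of 24 genes of the receptor, its ligand metabolism, its chaperones and coregulators, 20 were tested. Between genotypes none passed edgeR's test in IP (median 0.03, 1 at an unadjusted p under 0.05) or in Input (median -0.14). The smallest p belonged in IP to Bag1, an Hsp70 cochaperone (-0.36, SE 0.17, edgeR adjusted p 0.943), and in Input to Ncoa2, a receptor coactivator (1.38, SE 0.44). On ribosomes of WT hearts 1 of 20 passed, Fkbp4, beside 14.0% of all genes, and 18 of 20 differences were above 0 (median 0.47 beside 0.02 over all genes). In KO 5 of 20 were past the threshold higher, beside 16.4% of all genes in either direction, the leading ones Hsp90ab1, the chaperone that holds the receptor (0.86, SE 0.17), and Fkbp4 (0.79, SE 0.17).

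Of 41 other genes known to be induced by glucocorticoids 28 were tested, and Txnip and Anxa1 were listed at 0 in every library. Between genotypes in IP 0 of 28 passed by edgeR (median 0.13, 2 at an unadjusted p under 0.05). The smallest p was that of Ptgds, a prostaglandin D synthase: it lay between 1019 and 1214 CPM in WT IP and between 489 and 658 CPM in KO IP, a difference of -0.97 (SE 0.21, edgeR adjusted p 0.0950). In Input 1 of 28 was past the threshold, beside 0.182% of all genes, Zfp36 (1.77, SE 0.37), which also belongs to the immediate early list (median of the 28, 0.30). There 19 of the 28 differences were above 0. Pdk4 went the other way and was lower in KO Input (-1.23, SE 0.30), not past the threshold. In WT IP against WT Input 5 of 28 were past the threshold higher and 1 lower, beside 14.0% of all genes called. The leading ones were Klf13, a transcription factor (1.28, SE 0.27, edgeR adjusted p 0.00192), and Ptgds (1.01, SE 0.22, edgeR adjusted p 0.0022), and the one that fell was Dusp1, a phosphatase of MAP kinases (-1.15, SE 0.28, edgeR adjusted p 0.00612). In KO 4 of 28 were past the threshold higher and 4 lower, beside 16.4% of all genes, with Dusp1 (-1.94, SE 0.27) and Zfp36 (-2.64, SE 0.38) at the smallest p. The summed level of the 41 genes was 3355 to 3889 CPM in WT Input and 3332 to 3841 CPM in KO Input. It was 4035 to 4377 CPM in WT IP and 3720 to 4021 CPM in KO IP. The IP sums include Ptgds, at 1019 to 1214 CPM in WT and 489 to 658 CPM in KO. The Input sums include Pdk4, at 840 to 1073 CPM in WT and 194 to 580 CPM in KO. Each of these genes is a large part of its sum, so the sums do not show how the remaining genes differ. Of the 28 tested genes, 17 had a difference above 0 between genotypes in IP (median 0.13).

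**Figure D4:**
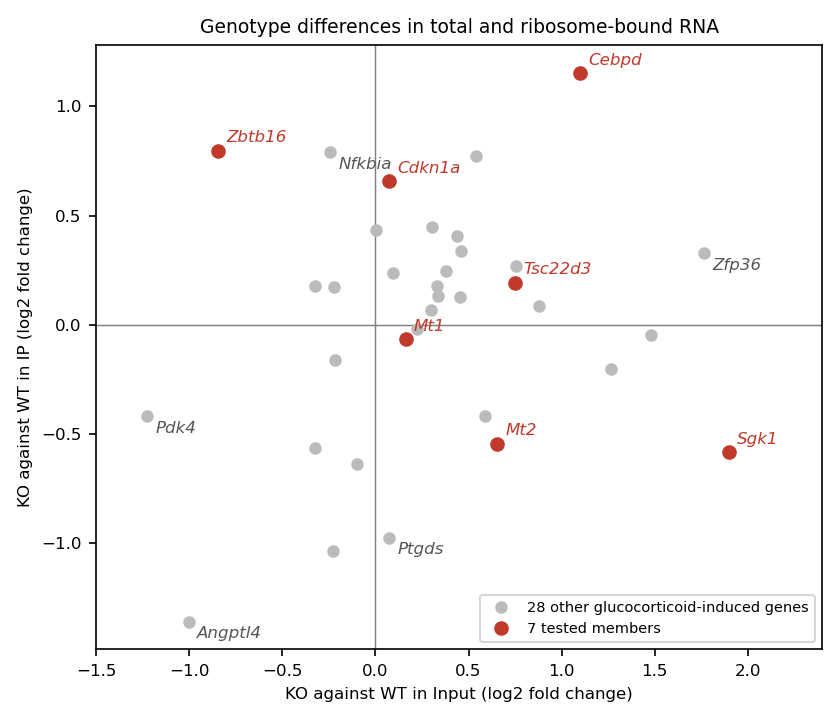
KO against WT log2 fold changes in Input (horizontal axis) and in IP (vertical axis) for the 7 tested genes of the set (red) and 28 other glucocorticoid-induced genes (grey), 1 point per gene. Sgk1 lies at 1.90 and -0.58, Cebpd at 1.10 and 1.15 and Zbtb16 at -0.84 and 0.80, while Mt1 lies near 0 on both axes.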

How the data were processed

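Raw counts per gene, 1 table per library, were used as the authors deposited them. Per the submitters' processing notes, minimap2 2.14, DESeq2 1.34.0 and build GRCm38 were used, with no role stated, and the counting tool and its treatment of strand and shared reads are not given in the sources used here. Of 55401 gene IDs, 55141 matched GENCODE M21 without version. Genes passing edgeR's filterByExpr (minimum count 10, minimum total 15), 6596 in all, were fitted over all 12 libraries with 1 mean per group, TMM factors and edgeR's quasi-likelihood test (edgeR 4.0.16, R 4.3.3), with Benjamini-Hochberg adjustment over all genes tested in each comparison and a threshold of 0.05. The fit was tested on simulated data. P values measure the spread between replicate libraries. Correlations use log2 CPM with a prior count of 2. Intervals of pooled counts are exact 95% intervals (scipy 1.17.1).

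Members and lists were chosen with earlier results of these data known. Text names every member, the deleted gene, Nr3c1, Nr3c2, Hsd11b1, and from each list, per comparison, up to 2 called genes by smallest p (1 gene where none passed), and the 3 genes most like each tested member. Fkbp2, the third called in its list, Dusp1 in WT, Pdk4 in Input, and the genes named for KO IP replicate 2 were named after their values were seen. A few genes that the rule names are not reported here. Alternatives were other size factors, count filters, tests (DESeq2 1.42.0, limma-voom 3.58.1), fits of the compared libraries only, the replicate block and each library left out. Same-numbered libraries did not deviate together, so the numbers were not used as pairs.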

Additional observations from a re-analysis of the deposited data

How the results depend on the processing

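Member calls in KO against WT in IP were 0 under every alternative run. In KO against WT in Input the 1 call became 0 with the stricter filter of 30 counts in 3 libraries, and ranged from 0 to 1 with each library left out. The stricter filter leaves 4 of the genes to test. Sgk1 is not among them, so its call was lost there because it was not tested. In IP against Input in WT the 2 calls ranged from 1 to 2 with each library left out. In IP against Input in KO the 2 calls became 1 with the stricter filter, where Sgk1 was again not tested, and 1 with limma-voom, which lost Zbtb16. In the interaction the 0 calls became 1 with no count filter, 1 with the DESeq2 test, and ranged from 0 to 1 with each library left out. In each of these the gene was Sgk1. No called difference changed sign. Library totals shifted the median of all genes by 0.117 in KO against WT in IP and by 0.147 in IP against Input in KO.

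With the replicate number as a block the calls were 1 in KO against WT in Input, 0 in KO against WT in IP, 3 in IP against Input in WT (Zbtb16 was added), 2 in IP against Input in KO and 0 in the interaction. Correlations of same-numbered libraries ran from -0.103 to 0.0309, and a library correlated best with its own number in 4 of 36 cases.

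Fkbp5, Zbtb16, Mt2 and Cdkn1a held 13 or fewer counts in every Input library, which limits what the Input libraries can show for them. Cebpd is limited in the same way, with 20 counts in KO Input replicate 2 and 5 to 9 in each other Input library.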

Other observations

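KO IP replicate 2 is the library that decides the sign of the Zbtb16 genotype difference on ribosomes. Above Zbtb16 in that ranking stood CT010467.1 (62.8 CPM against at most 11.7 in the 5 other IP libraries) and Gm28661 (5.23 CPM and at 0 in the others). The next below Zbtb16, all picked after their values were seen, were Itga6, an integrin chain (2.59-fold the next highest library), Ppara, the fatty acid receptor (2.36-fold), and Stam, an endosomal sorting protein (2.07-fold), each with 2 CPM added to both values.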
